A study of Rattus norvegicus with 22 samples.

Results

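Voltage-gated calcium channels open on depolarization and let calcium into neurons, where it triggers transmitter release, shapes firing and reaches the nucleus to change transcription. Each channel is built around a pore-forming alpha-1 subunit, and the gene that supplies this subunit sets the current: P/Q-type (Cacna1a), N-type (Cacna1b), L-type (Cacna1c and Cacna1d), R-type (Cacna1e) or low-voltage-activated T-type (Cacna1g, Cacna1h and Cacna1i). In the hippocampus, P/Q- and N-type channels serve fast release at terminals, L-type channels of the soma and dendrites couple activity to gene expression, and R- and T-type channels support dendritic calcium entry and burst firing. The members described here were these 8 genes, chosen by name among the 17172 genes of the count table. All 8 were found, and all 8 were among the 12875 genes with enough counts to be tested.

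Transcripts were counted by RNA-seq in whole hippocampus from the injured side, 1 library per rat, in 14 adult male Sprague-Dawley rats. Rats of the TBI groups received a moderate lateral fluid percussion injury, in which a fluid pulse strikes the dura through an opening in the right skull, and were killed 1 day (n = 4) or 14 days (n = 4) later. Sham rats had the same anesthesia and craniectomy without the pulse and were killed at day 1 (n = 2) or day 14 (n = 4). The comparisons asked how the message of each pore gene stood after injury at the acute and the subchronic time, relative to the sham rats of the same day.

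Total counts per sample were between 15065540 and 23743703, and the lowest count of any pore gene in any sample was 403, for Cacna1c. In all, 4 libraries stood apart. Choroid plexus markers summed to 8509 CPM (counts scaled to a common library size) in sham day 1 replicate 1 against 5.72 in replicate 2, and to 1521 and 7502 in TBI day 14 replicates 2 and 3, while the other 10 samples lay between 9.86 and 21.9. TBI day 1 replicate 1 had the lowest summed level of 10 neuron markers, 2160 CPM, against 3162 to 5561 in the other 13 samples. Neuron, pyramidal, dentate granule and interneuron markers were counted in every sample, although the interneuron marker Npy and the choroid marker Otx2 were listed at 0 throughout. Because sham day 1 held 2 samples that differed from each other, the day 1 change of each pore gene is also given with either of them left out.

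Expression is given as log2 CPM, scaled with edgeR's TMM factors and with a prior count of 2. A gene is called lower or higher when the adjusted p of edgeR's quasi-likelihood test, over 12875 genes, is under 0.05. The table gives no gene lengths, so values were compared within a gene across samples and not between genes. In bulk tissue, fewer cells of a type and less RNA per cell cannot be told apart.

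At day 1 after TBI, 3 of the 8 pore genes were called lower than in time-matched sham and 0 higher. These were the T-type genes Cacna1i and Cacna1h and the L-type gene Cacna1c. Over all tested genes, 7.93% were called lower and 11.2% higher in this comparison. At day 14, Cacna1i alone was called lower and 0 pore genes were called higher, where 0.365% of all genes were called lower and 4.07% higher. At either day, 0 pore genes were higher by limma-voom or DESeq2, or at an unadjusted p under 0.05 by edgeR.

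**Figure D1:**
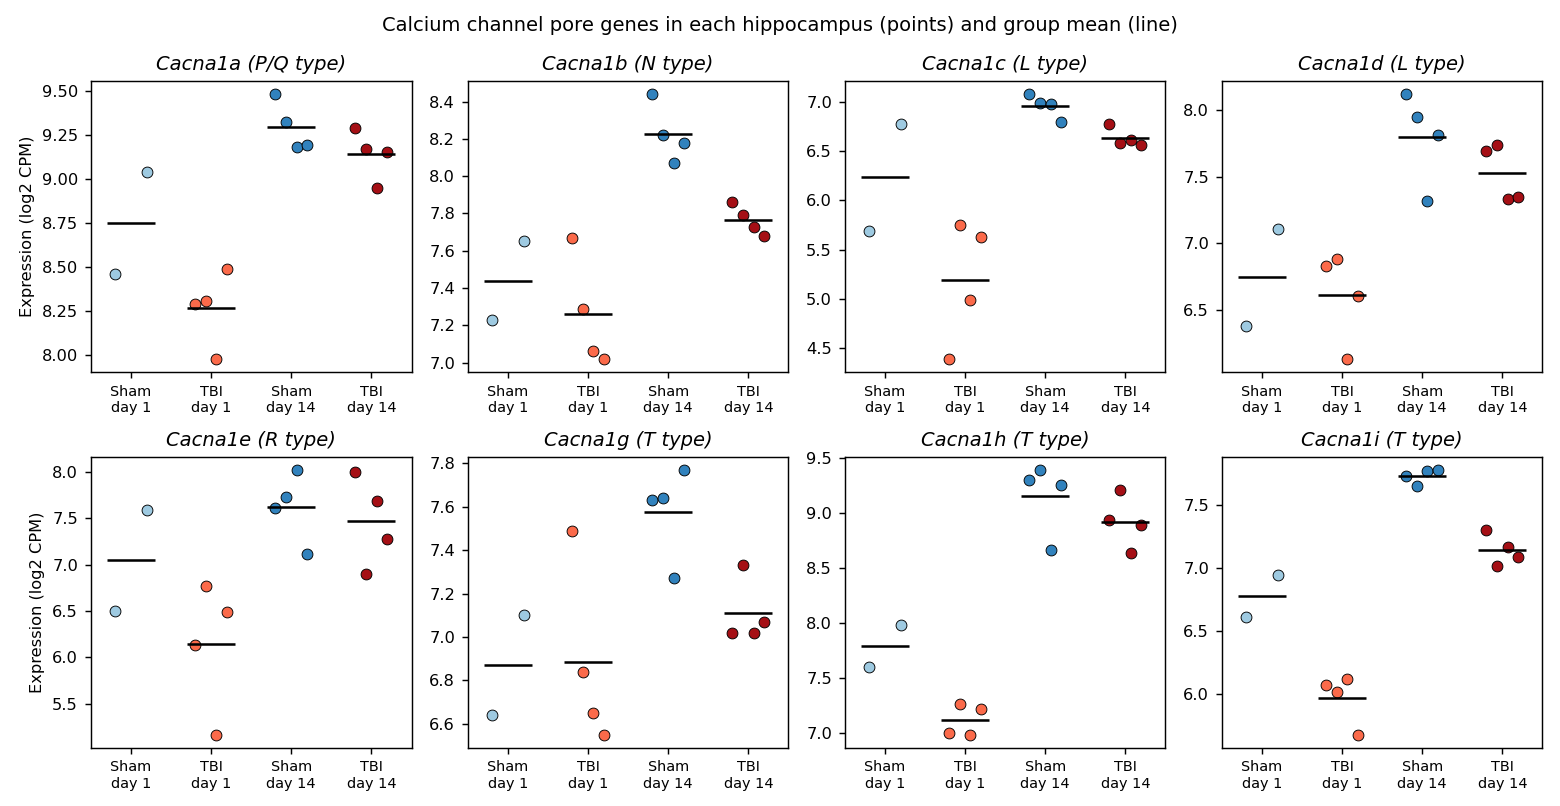
Expression of the 8 pore genes in log2 CPM (vertical axis, a separate scale for each gene) in sham and TBI hippocampi at day 1 and day 14; each point is 1 rat and each line a group mean. Cacna1i in TBI lay below sham at both days with no overlap, and Cacna1h in the 4 TBI day 1 samples lay between 6.99 and 7.27, below all other samples.

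Cacna1i encodes Cav3.3, the T-type pore whose current inactivates most slowly and which is known from thalamic reticular and other inhibitory neurons. Its day 1 values were 6.61 and 6.95 log2 CPM in the sham samples and 6.07, 6.02, 6.12 and 5.68 in the TBI samples. Every TBI sample was lower than both sham samples. The log2 fold change was −0.81 (SE 0.14, 95% interval −1.12 to −0.51, adjusted p = 0.00134 by edgeR), a level 43.1% lower. The sham samples of day 14 measured 7.73, 7.65, 7.77 and 7.78, and the TBI samples 7.30, 7.02, 7.17 and 7.09. The groups again did not overlap, and the sham samples were closely spaced (SD 0.06, n = 4). The log2 fold change was −0.59 (SE 0.12, 95% interval −0.84 to −0.33, adjusted p = 0.00744 by edgeR), a level 33.4% lower. Over all genes, 9 (0.0699%) were called lower at both days, and Cacna1i was the 1 pore gene among them.

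With either sham day 1 sample left out, the day 1 change of Cacna1i was −0.98 or −0.63 and the call was kept. Without any 1 of the day 14 samples it lay between −0.64 and −0.54 and was called each time. The day 1 call was lost when only the 6 samples of that day were fitted (−0.78, adjusted p = 0.0653 by edgeR). At day 14, when all 6 sham samples served as the baseline, the change was −0.33 (adjusted p = 0.513 by edgeR) and was not called.

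Cacna1h encodes Cav3.2, a T-type pore of dentate granule and pyramidal neurons known for its rise in models of acquired epilepsy. In the day 1 samples it measured 7.60 and 7.98 log2 CPM in sham and 7.00, 7.27, 6.99 and 7.22 in TBI, with no overlap between the groups. The log2 fold change was −0.68 (SE 0.20, 95% interval −1.1 to −0.25, adjusted p = 0.0288 by edgeR), and −0.86 (adjusted p = 0.0231) without sham day 1 replicate 1. This call was lost without sham day 1 replicate 2 (−0.47, adjusted p = 0.305), without TBI day 1 replicate 3 (−0.63, adjusted p = 0.0612 by edgeR) and with only the day 1 samples fitted (−0.65, adjusted p = 0.0989 by edgeR). At day 14 Cacna1h measured 9.30, 9.39, 8.66 and 9.25 in sham and 8.94, 9.21, 8.64 and 8.89 in TBI. These groups overlapped, and the change of −0.24 (SE 0.17, 95% interval −0.60 to 0.11, adjusted p = 0.65 by edgeR) was not called.

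Cacna1g encodes Cav3.1, the T-type pore of thalamic relay neurons, also present in hippocampal neurons. Cacna1g was at 6.64 and 7.10 log2 CPM in sham at day 1 and 7.49, 6.84, 6.65 and 6.55 in TBI. The highest value of the day was thus a TBI sample, replicate 1, and the change of 0.05 (SE 0.23, 95% interval −0.45 to 0.54, adjusted p = 0.912 by edgeR) became −0.20 without it. With sham day 1 replicate 1 left out it stood at −0.17, and with replicate 2 left out at 0.29. Thalamus markers summed to 103 CPM in TBI day 1 replicate 1, to 81.6 to 84.6 in the other 3 TBI samples of that day, and to 79.5 and 106 in the sham samples. Their median change at day 1 was −0.17. Prkcd was called higher (1.14, adjusted p = 0.0125 by edgeR) and Slc17a6 lower (−1.62, adjusted p = 0.0212 by edgeR). At day 14 Cacna1g measured 7.63, 7.64, 7.27 and 7.77 in sham and 7.02, 7.33, 7.02 and 7.07 in TBI, where 3 of 4 TBI samples lay below every sham sample. The log2 fold change of −0.47 (SE 0.19, 95% interval −0.88 to −0.06) had an unadjusted p of 0.0262 and an adjusted p of 0.266 by edgeR. It was called when only the day 14 samples were fitted (−0.43, adjusted p = 0.0387 by edgeR). Thalamus markers then summed to 82.5 to 108 CPM in TBI and 50.3 to 62.7 in sham. Of the 5 tested, Prkcd alone was called (1.71, adjusted p = 0.000264 by edgeR) and the median change was 0.09, and the thalamic marker Gbx2 had 3 counts or fewer in every sample. The part of thalamic tissue in these values was not tested.

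Of the pair of L-type genes, Cacna1c was called at day 1 and Cacna1d was not, and the difference between their changes was not tested. Cacna1c encodes Cav1.2, the main L-type pore of hippocampal neurons and also that of smooth muscle. It measured 5.69 and 6.78 log2 CPM in sham and 4.39, 5.75, 4.99 and 5.63 in TBI. Sham replicate 1 lay within the range of the TBI samples and sham replicate 2 above it. The log2 fold change was −1.05 (SE 0.30, 95% interval −1.7 to −0.40, adjusted p = 0.0261 by edgeR), the largest in size of the 8 genes. It rested on the sham samples: it was −0.41 (adjusted p = 0.549 by edgeR) without sham day 1 replicate 2 and −1.49 (adjusted p = 0.00552) without replicate 1. Without TBI day 1 replicate 3 it was −0.96 and no longer called (adjusted p = 0.0612 by edgeR), as with only the day 1 samples fitted (−1.02, adjusted p = 0.182 by edgeR). At day 14 Cacna1c measured 7.08, 6.99, 6.98 and 6.80 in sham and 6.78, 6.58, 6.61 and 6.56 in TBI. Every TBI sample was below every sham sample, the closest pair being 6.80 and 6.78, and the change of −0.33 (SE 0.25, 95% interval −0.87 to 0.21, adjusted p = 0.717 by edgeR) was not called.

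Cacna1d encodes Cav1.3, the L-type pore that opens at less depolarized voltages. At day 1 it measured 6.38 and 7.11 log2 CPM in sham and 6.83, 6.88, 6.13 and 6.60 in TBI. The groups overlapped, and the change was −0.16 (SE 0.25, 95% interval −0.69 to 0.38, adjusted p = 0.698 by edgeR). With sham day 1 replicate 2 left out it was 0.25, and with replicate 1 left out −0.48. The day 14 values were 8.12, 7.95, 7.32 and 7.81 in sham and 7.69, 7.74, 7.33 and 7.35 in TBI, a change of −0.29 (SE 0.21, 95% interval −0.73 to 0.15, adjusted p = 0.677 by edgeR). Sham replicate 3 was the lowest of the 8 samples of that day.

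The promoter windows of the L-type pair are shown because these genes carry the same kind of current and 1 of them was called at day 1. Each is the 300 bases from 250 before to 50 after the annotated start, in the RefSeq annotation of GRCr8, read 5′ to 3′ on the minus strand. Capitals mark the GC box GGGCGG or its reverse complement CCGCCC, the core sequence bound by Sp1-family factors.
Cacna1c, chr4:154051699-154051998: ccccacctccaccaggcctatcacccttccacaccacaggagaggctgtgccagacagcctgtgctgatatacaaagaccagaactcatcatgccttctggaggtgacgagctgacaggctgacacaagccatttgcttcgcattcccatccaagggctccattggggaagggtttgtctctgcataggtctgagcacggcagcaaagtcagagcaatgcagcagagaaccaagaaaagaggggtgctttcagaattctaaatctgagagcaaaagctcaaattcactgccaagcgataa
Cacna1d, chr16:5527500-5527799: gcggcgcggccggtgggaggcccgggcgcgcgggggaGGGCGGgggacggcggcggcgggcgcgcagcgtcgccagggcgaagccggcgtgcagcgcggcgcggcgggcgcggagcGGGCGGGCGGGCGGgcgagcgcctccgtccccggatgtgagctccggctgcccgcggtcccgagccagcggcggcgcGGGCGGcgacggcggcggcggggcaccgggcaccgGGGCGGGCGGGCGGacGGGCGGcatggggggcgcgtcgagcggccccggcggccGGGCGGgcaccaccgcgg
The Cacna1d window held 10 GC boxes, counting overlapping matches, 66 CpG dinucleotides and 88.7% G+C. The Cacna1c window held 0 GC boxes, 4 CpG dinucleotides and 51.7% G+C. GC boxes were found in 33.1% of 33469 RefSeq promoter windows, whose median was 7 CpG dinucleotides and 51.7% G+C. Windows were matched for 5 of the 8 genes: Cacna1a and Cacna1b held 1 and 3 GC boxes, and Cacna1e 0. The TATA box TATAAA or TTTATA, present in 14.2% of windows, was found in 0 of the 5. A letter match is a description of the window and was not related to the expression values. Whether each annotated start is where transcription begins in the hippocampus was not tested.

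Cacna1a and Cacna1b supply the presynaptic channels. Cacna1a encodes Cav2.1, the P/Q-type pore that drives release at most fast synapses. Its level at day 1 was 8.46 and 9.04 log2 CPM in sham and 8.29, 8.31, 7.98 and 8.49 in TBI, where TBI replicate 4 lay just above sham replicate 1. The change of −0.50 (SE 0.18, 95% interval −0.87 to −0.12) had an adjusted p of 0.062 by edgeR and was not called. It was −0.76 (adjusted p = 0.0132) without sham day 1 replicate 1 and −0.18 (adjusted p = 0.672 by edgeR) without replicate 2. It was called by DESeq2 (−0.51, adjusted p = 0.0315) and without TBI day 1 replicate 4 (−0.57, adjusted p = 0.0364 by edgeR). At day 14 it measured 9.48, 9.32, 9.18 and 9.19 in sham and 9.29, 9.17, 8.95 and 9.15 in TBI. This was a change of −0.15 (SE 0.15, 95% interval −0.47 to 0.16, adjusted p = 0.794 by edgeR), within overlapping groups.

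Cacna1b encodes Cav2.2, the N-type pore that shares release sites with Cav2.1 and is the target of omega-conotoxins. The day 1 samples measured 7.23 and 7.65 log2 CPM in sham and 7.67, 7.29, 7.06 and 7.02 in TBI. TBI replicate 1 was the highest of the 6, and the change was −0.17 (SE 0.18, 95% interval −0.56 to 0.21, adjusted p = 0.538 by edgeR). Without sham day 1 replicate 1 it was −0.37, and without replicate 2 it was 0.054. By day 14 Cacna1b stood at 8.44, 8.22, 8.07 and 8.18 in sham and 7.86, 7.79, 7.73 and 7.68 in TBI, with no overlap. The change of −0.47 (SE 0.15, 95% interval −0.78 to −0.15) had an unadjusted p of 0.00695 and an adjusted p of 0.117 by edgeR, so it was not called. It was called by DESeq2 (adjusted p = 0.0499) and when only the day 14 samples were fitted (−0.43, adjusted p = 0.0126 by edgeR).

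Cacna1e encodes Cav2.3, the R-type pore of dendritic spines and terminals. At day 1 it measured 6.50 and 7.59 log2 CPM in sham and 6.13, 6.77, 5.17 and 6.49 in TBI. This was the widest spread of the 8 genes in both groups (SD 0.78, n = 2, and 0.70, n = 4). The change of −0.89 (SE 0.39, 95% interval −1.73 to −0.06, adjusted p = 0.12 by edgeR) was not called, and reached −1.34 without sham day 1 replicate 1, where it was called, against −0.24 without replicate 2. At day 14 it measured 7.61, 7.73, 8.02 and 7.12 in sham and 8.00, 6.90, 7.69 and 7.28 in TBI. The highest values of both groups were alike, and the change was −0.13 (SE 0.33, 95% interval −0.82 to 0.57, adjusted p = 0.947 by edgeR).

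**Figure D2:**
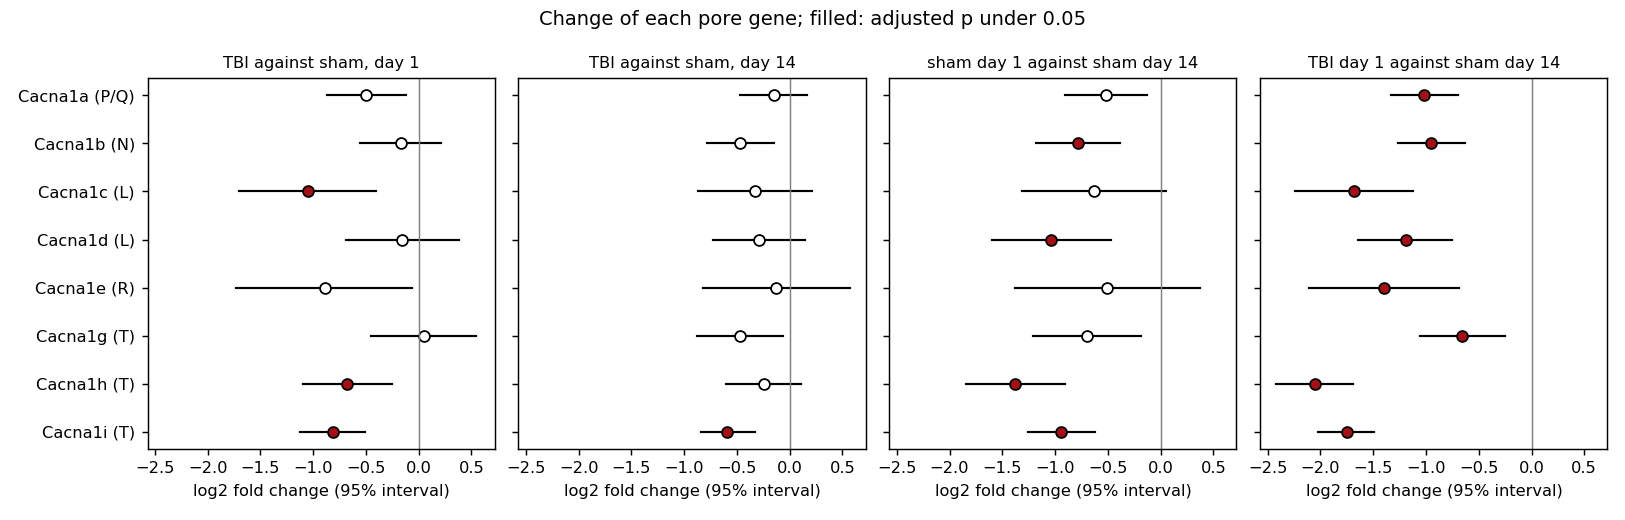
Fitted log2 fold change (horizontal axis) of each pore gene in 4 comparisons, with 95% intervals; filled points have an adjusted p under 0.05 by edgeR. Cacna1i was called in all 4 panels, and TBI day 1 against sham day 14 is the panel in which all 8 genes were called.

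At day 14 the fitted change was below 0 for 8 of 8 pore genes, a sign carried by 55.8% of all tested genes. At day 1 it was below 0 for 7 of 8, against 51.3% of all genes. At day 14 the TBI and sham samples did not overlap, TBI lower, for Cacna1b, Cacna1c and Cacna1i, and 5.86% of all genes showed such a separation. At day 1 this was so for Cacna1h and Cacna1i, and for 14.1% of all genes. The difference between the injury effects of the days was tested directly, and it was called for 0 of 8 genes by edgeR and by DESeq2, where edgeR called 3.68% of all genes. At an unadjusted p under 0.05 by edgeR 0 of 8 passed, against 8.8% of all genes with the day 1 effect the lower and 10.4% with it the higher. For Cacna1c the day 1 change was the more negative by 0.72 (SE 0.40, 95% interval of the difference −1.57 to 0.13, adjusted p = 0.347 by edgeR), and for Cacna1g it was the less negative by 0.52 (SE 0.30, 95% interval −0.13 to 1.17, adjusted p = 0.375 by edgeR). For Cacna1i the difference was −0.23 (SE 0.19, 95% interval −0.63 to 0.17, adjusted p = 0.537 by edgeR). Without sham day 1 replicate 1 these 3 differences were −1.16, 0.30 and −0.39, and without replicate 2 they were −0.078, 0.76 and −0.048, for Cacna1c, Cacna1g and Cacna1i in that order. With sham day 1 replicate 1 and TBI day 1 replicate 1 left out together, the difference of Cacna1c was −0.96 and was called (adjusted p = 0.0397 by edgeR).

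**Figure D3:**
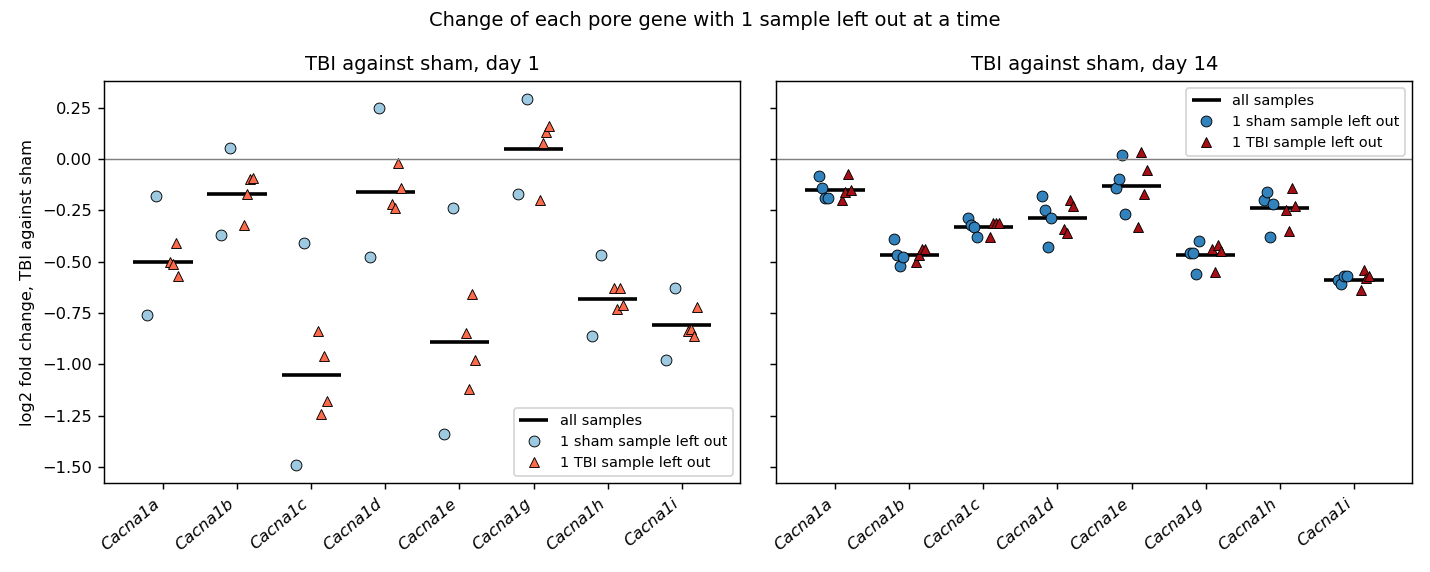
Log2 fold change of each pore gene, TBI against sham (vertical axis), with all samples (line) and with 1 sham sample (circles) or 1 TBI sample (triangles) left out in turn. At day 1 leaving out 1 of the 2 sham samples moved Cacna1c between −1.49 and −0.41, whereas Cacna1i stayed between −0.98 and −0.63, and at day 14 between −0.64 and −0.54.

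The sham groups differed from each other. All 8 pore genes had a lower mean in sham at day 1 than in sham at day 14, as did 48.5% of all genes, and 4 were called lower by edgeR: Cacna1h, Cacna1i, Cacna1d and Cacna1b. By limma-voom, by DESeq2 and with the replicate number as a block, 6 were called, Cacna1a and Cacna1g being added. Over all genes 7.88% were called lower and 11.3% higher. For Cacna1h the mean was 7.79 ± 0.27 log2 CPM (SD, n = 2) at day 1 and 9.15 ± 0.33 (SD, n = 4) at day 14. On the log2 scale the gap was −1.38 (SE 0.22, adjusted p = 0.00196 by edgeR), or 61.5% lower, and was −1.20 and −1.58 with either sham day 1 sample left out. The change of Cacna1i was −0.94 (SE 0.15, adjusted p = 0.00216 by edgeR) and −0.78 or −1.12 with either sham day 1 sample left out. That of Cacna1d was −1.04 (adjusted p = 0.0164) and that of Cacna1b −0.78 (adjusted p = 0.0127 by edgeR). Without sham day 1 replicate 1, the calls of Cacna1d (−0.72, adjusted p = 0.123 by edgeR) and Cacna1b (−0.58, adjusted p = 0.0934) were lost. The sham day 1 and sham day 14 values did not overlap for 7 of 8 genes, Cacna1e being the exception, and such a separation with day 1 lower held for 20.1% of all genes. Summed neuron markers were 4315 and 5561 CPM in sham day 1 and 3942 to 5154 in sham day 14. The median change between the sham groups was −0.74 for the pore genes and 0.16 for the neuron markers. It was −0.36 for pyramidal, 0.75 for dentate granule and −0.03 for interneuron markers. Pyramidal markers summed to 417.6 and 843.5 CPM in sham day 1 and 1044 to 1146 in sham day 14, without overlap. Dentate granule markers summed to 191.4 and 445.9 CPM in sham day 1 and 184.3 to 283.8 in sham day 14. The part of cell composition in this difference was not tested. Time since surgery and anything that differed in handling between the days cannot be told apart in this comparison.

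The TBI day 1 samples were also set against sham day 14, the baseline that the study used for its trajectories, which shares both groups with comparisons above. All 8 genes were called lower, where 21.0% of all genes were called lower and 25.0% higher. The changes ran from −0.66 for Cacna1g (SE 0.19, adjusted p = 0.0117 by edgeR), the 1 gene whose groups overlapped, to −2.05 for Cacna1h (SE 0.17, adjusted p = 6.03e-07 by edgeR), one of 7 whose TBI samples were all lower, as for 17.8% of all genes. Cacna1i was at −1.75 (SE 0.12, adjusted p = 1.3e-07 by edgeR) and Cacna1c at −1.68 (adjusted p = 0.000135). Cacna1e was at −1.40 (adjusted p = 0.00335 by edgeR), Cacna1d at −1.19, Cacna1a at −1.02 and Cacna1b at −0.95. Each of the 8 genes kept its call in every alternative run, single samples left out included. For Cacna1h, TBI day 1 was 75.9% below sham day 14, sham day 1 was 61.5% below it, and TBI day 1 was 37.4% below sham day 1.

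By current type, the summed CPM of the 3 T-type genes was 452 ± 86.5 (SD, n = 2) in sham and 325 ± 37.7 (SD, n = 4) in TBI at day 1, 28.1% lower, and 984 ± 139 and 770 ± 87.8 (SD, n = 4 each) at day 14, 21.8% lower. The L-type sum was 27.7% lower in TBI at day 1 and 19.0% at day 14. For R-type the values were 46.2% and 8.45%, for P/Q-type 29.1% and 10.0%, and for N-type 11.2% and 27.6%. The 8 genes together fell short of sham by 28.1% at day 1 and 18.0% at day 14. The day 1 sums rested on the sham samples. Without sham day 1 replicate 2 the T-type sum was 16.9% lower, R-type 15.5% lower and P/Q-type 11.5% lower, whereas the L-type and N-type sums changed by 2.51% and 3.88%, both higher in TBI. Without replicate 1 the 5 types were 22.4% (N-type) to 60.5% (R-type) lower. Scaled to the total counts in place of TMM, the day 1 changes were −18.6% for T-type, −17.9% for L-type, −38.8% for R-type, −19.8% for P/Q-type and 1.04% for N-type. At day 14 that scaling gave changes between −25.5% (N-type) and −5.84% (R-type).

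Shares of the 8 genes' reads compare libraries, not the abundance of the channels, since lengths were not used. At day 1 T-type genes took 30.5% and 35.0% of these reads in sham and 28.8% to 36.2% in TBI. The day 14 ranges were 35.8% to 43.8% for sham and 35.3% to 41.8% for TBI. Both day 1 groups therefore lay lower than sham day 14 apart from 1 TBI sample, and TBI overlapped sham at each day. Cacna1h carried most of this gap, with a sham share of 16.2% ± 1.64 (SD, n = 2) and a TBI share of 14.0% ± 1.67 (SD, n = 4) at day 1, and shares of 23.3% ± 3.32 and 24.1% ± 2.90 (SD, n = 4 each) at day 14. The P/Q-type share at day 14 was 24.3% to 26.7% in sham and 26.9% to 29.4% in TBI, without overlap. How often shares of other genes separate in this way was not counted. The N-type share was 11.5% to 12.8% in sham and 10.5% to 11.5% in TBI.

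**Figure D4:**
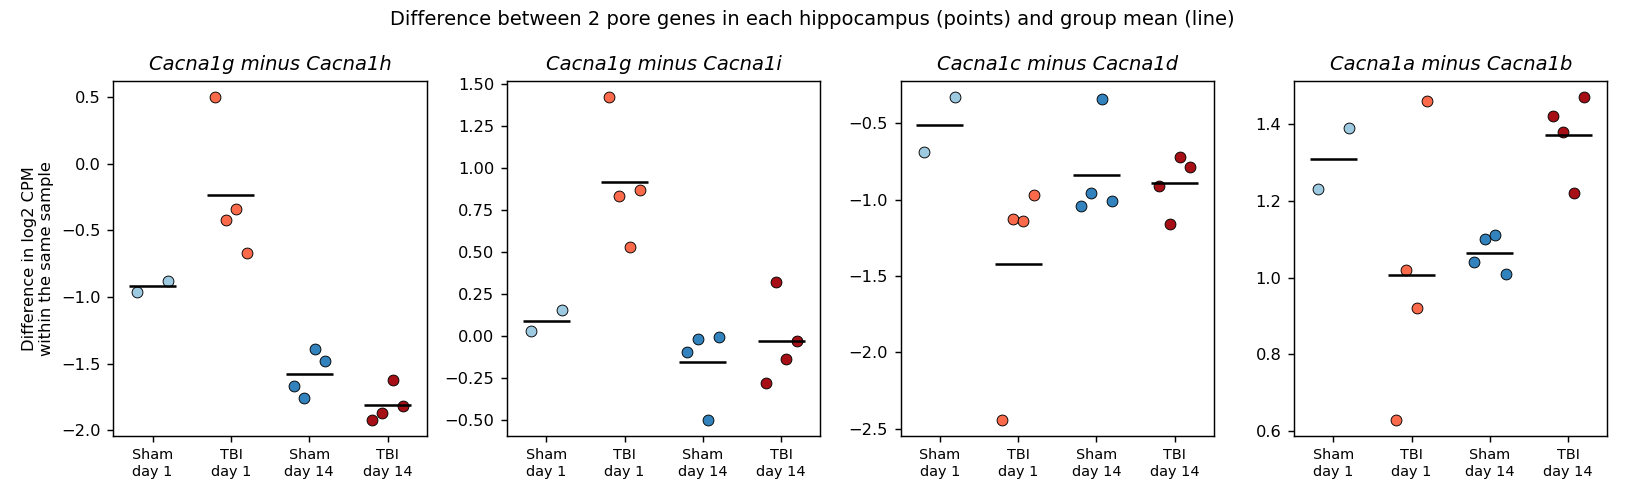
Difference in log2 CPM between 2 pore genes of the same sample (vertical axis) in each group; points are rats and lines group means. Cacna1g relative to Cacna1h was higher in the 4 TBI day 1 samples than in the other 10, and Cacna1a relative to Cacna1b was higher in the 4 TBI day 14 samples than in sham day 14. The share of other gene pairs with such a separation was not counted.

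Differences between members within a sample do not depend on library scaling, and they are given without a test. How often the groups separate for other gene pairs was not counted. Among single genes, TBI lay wholly below sham for 14.1% at day 1 and 5.86% at day 14. It lay wholly above sham for 16.7% and 9.13%. Cacna1g minus Cacna1h was −0.96 and −0.88 in sham day 1 and 0.50, −0.42, −0.34 and −0.67 in TBI day 1, where every TBI sample was higher. TBI replicate 1 was the only sample of the 14 in which the value was above 0. The day 14 values were −1.67, −1.76, −1.39 and −1.48 in sham and −1.92, −1.87, −1.62 and −1.82 in TBI, where the groups overlapped. Cacna1g minus Cacna1i was 0.03 and 0.15 in sham day 1 and 1.42, 0.83, 0.53 and 0.87 in TBI day 1. Relative to Cacna1g, Cacna1h and Cacna1i were thus lower in each TBI sample of day 1 than in either sham sample. Cacna1h minus Cacna1i was 0.99 and 1.02 in sham day 1 and 0.93, 1.25, 0.88 and 1.54 in TBI day 1, with overlap. Among the L-type genes, Cacna1c minus Cacna1d was −0.69 and −0.33 in sham day 1 and −2.44, −1.13, −1.14 and −0.97 in TBI day 1, all lower than sham. Among the presynaptic genes, Cacna1a minus Cacna1b was 1.04, 1.10, 1.11 and 1.01 in sham day 14 and 1.42, 1.38, 1.22 and 1.47 in TBI day 14, all higher than sham. At day 1 that difference was 1.23 and 1.39 in sham and 0.63 to 1.46 in TBI, with overlap.

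The subunits that accompany the pore were read from lists. Of 3 tested alpha-2-delta genes, which carry the pore to the membrane, Cacna2d1 (−1.34, SE 0.38, adjusted p = 0.0245 by edgeR) and Cacna2d3 (−0.59, SE 0.16, adjusted p = 0.0169 by edgeR) were called lower at day 1, and Cacna2d2 was at −0.57 (adjusted p = 0.106). Of the 4 beta genes, cytoplasmic subunits that set surface expression and gating, Cacnb1 was called lower (−0.51, SE 0.12, adjusted p = 0.0104 by edgeR). Cacnb2, Cacnb3 and Cacnb4 were at −0.53, −0.37 and −0.73 and were not called by edgeR, while DESeq2 called Cacnb3 lower. Of 7 gamma genes, Cacng3 (−0.95, adjusted p = 0.0143 by edgeR) and Cacng2 (−0.86, adjusted p = 0.0488 by edgeR) were called lower, and both are known foremost as partners of AMPA receptors. The other 5 gamma genes lay between −1.48 (Cacng6) and −0.08 (Cacng4), and of these DESeq2 called Cacng7 (−0.31) and Cacng8 (−0.65) lower. At day 14, 0 of these 14 subunit genes were called by edgeR, limma-voom or DESeq2, and Cacna2d2 alone passed an unadjusted p under 0.05 by edgeR. Their fitted changes had Cacna2d2 at −0.54 (adjusted p = 0.205 by edgeR) the most negative and Cacng4 at 0.35 (adjusted p = 0.521) the most positive.

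The other alpha-1 genes, Cacna1f and Cacna1s, known from retina and skeletal muscle, were at 0.58 and −0.01 at day 1 and at −0.50 and 0.10 at day 14, with 0 calls by edgeR, limma-voom or DESeq2 and 0 at an unadjusted p under 0.05. Of the 4 RGK small GTPases, which bind beta subunits and reduce calcium current, 0 were called by edgeR. At day 1 Rem2 was at −0.96 (adjusted p = 0.0646 by edgeR) and was called lower by limma-voom and DESeq2, and Gem was at 0.92 (adjusted p = 0.0918 by edgeR). Both passed an unadjusted p under 0.05 by edgeR. At day 14 Rem1 was at 0.47 and Rrad at −0.18.

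Further along the pathway, 4 of 10 presynaptic partners of Cav2 channels were called lower at day 1. Among them were Bsn (−0.97, adjusted p = 0.00578 by edgeR), an active zone scaffold, and Unc13a (−0.60, adjusted p = 0.0195 by edgeR), which primes vesicles. Of 12 genes of calcium-dependent signaling, among them calcineurin and the CaM kinases, 3 were called lower, with Camk4 at −1.14 (adjusted p = 0.0121) and Camk2g at −0.68 (adjusted p = 0.0152 by edgeR). Of 12 genes of calcium stores and extrusion, 6 were called lower, led by the plasma membrane pump Atp2b3 (−1.51, adjusted p = 0.00224 by edgeR) and the ryanodine receptor Ryr2 (−1.40, adjusted p = 0.00224 by edgeR). Of 5 calcium-activated potassium channel genes, Kcnma1 (−1.08, adjusted p = 0.0176 by edgeR) and Kcnn1 (−0.72, adjusted p = 0.0276 by edgeR) were called lower.

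Over these lists together, 20 of 59 tested genes were called lower and 0 higher at day 1 by edgeR, against 7.93% and 11.2% of all genes. By limma-voom 21 were called lower and 0 higher, and by DESeq2 29 lower and 1 higher, the inositol trisphosphate receptor Itpr2. Of all 12875 genes, limma-voom called 984 lower and 1405 higher, and DESeq2 1438 and 1716. At an unadjusted p under 0.05 by edgeR, 38 were lower and 3 higher, against 17.0% and 17.4% of all genes. The count rested on the sham samples: without sham day 1 replicate 2 it was 3 of 60 genes, Atp2b3, Cacnb3 and Kcnmb4, and without replicate 1 it was 25, with Camk2d and Rem1 called higher. Of the 20 genes, 1 (Atp2b3) kept its call without replicate 2 and 18 without replicate 1, and all 20 stayed below 0 without replicate 2, between −1.22 and −0.38. The median change of the 59 genes was −0.65 on the log2 scale, against −0.59 for the 8 pore genes and −0.02 for all genes. At day 14, 0 of 59 were called in either direction by edgeR, limma-voom or DESeq2. Over all genes edgeR called 0.365% lower and 4.07% higher. At an unadjusted p under 0.05 by edgeR, 4 of 59 were lower and 0 higher, against 4.28% and 9.03% of all genes. The median was −0.18, against −0.31 for the pore genes and −0.03 for all genes. The smallest p-values of the lists at day 14 belonged to Rims2 (−0.41, adjusted p = 0.19), Rims1 (−0.34, adjusted p = 0.309) and Atp2b4 (−0.67, adjusted p = 0.22 by edgeR) among these pathway genes, beside Cacna2d2. Atp2a2 was at −0.30, Kcnn1 at −0.30, Kcnn3 at −0.33 and Camk2a at −0.18.

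**Figure D5:**
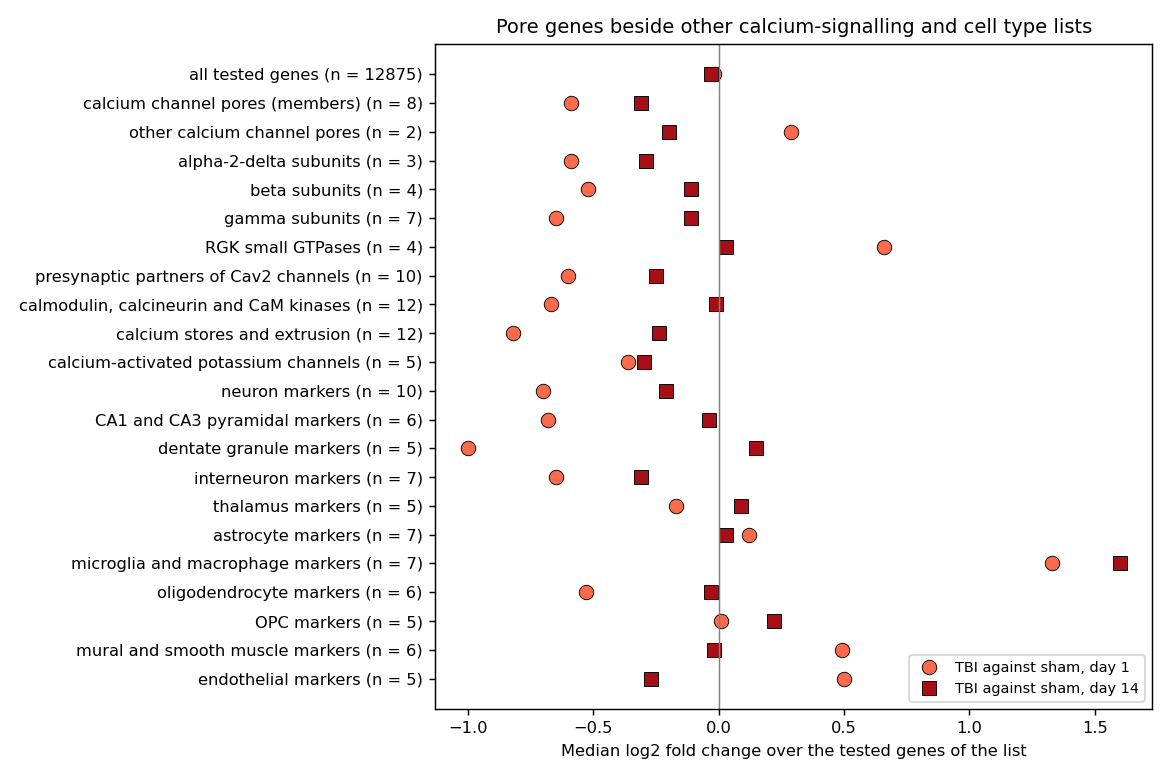
Median log2 fold change, TBI against sham (horizontal axis), over the tested genes of each list at day 1 (circles) and day 14 (squares); choroid plexus markers, at −5.73 and 4.41, are left out for scale. The pore genes lay at −0.59 and −0.31, beside neuron markers at −0.70 and −0.21, and microglia and macrophage markers lay at 1.33 and 1.60.

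Cell type markers also differed between TBI and sham, some lower and some higher. At day 1 the 10 neuron markers had a median of −0.70, with 3 called lower, and their summed level was 2160 to 3540 CPM in TBI and 4315 and 5561 in sham, without overlap. Interneuron markers summed to 321 to 470 CPM in TBI and 551 and 764 in sham, with 4 of 7 called lower. Of the CA1 and CA3 pyramidal markers 3 of 6 were called lower, and of the dentate granule markers 2 of 5. The pyramidal sum was 347.9 to 673.5 CPM in TBI and 417.6 and 843.5 in sham, with overlap. The dentate granule sum was 53.59 to 177.5 CPM in TBI and 191.4 and 445.9 in sham, without overlap. Microglia and macrophage markers summed to 650 to 769 CPM in TBI and 266 and 447 in sham, with 4 of 7 called higher. Astrocyte markers summed to 10360 to 16350 CPM in TBI and 3768 and 5668 in sham, with Gfap (3.1) and Fgfr3 (0.57) called higher and a median change of 0.12 over 7 genes. Of 6 oligodendrocyte markers 2 were called lower, Cnp (−0.80) among them. Tagln (3.45), of the mural and smooth muscle markers, and Pecam1 (1.14), of the endothelial markers, were called higher. Choroid plexus markers had 8 of 9 called lower, from the single sham library that held them. At day 14, 0 neuron and 0 interneuron markers were called by edgeR, limma-voom or DESeq2. At an unadjusted p under 0.05 by edgeR, 1 neuron marker (Map2) and 3 interneuron markers (Lhx6, Pvalb and Slc32a1) were lower. The interneuron sum was 510 to 533 CPM in TBI and 592 to 725 in sham, without overlap. The neuron sum was 3335 to 3915 in TBI and 3942 to 5154 in sham. The pyramidal sum was 1096 to 1300 CPM in TBI and 1044 to 1146 in sham. The dentate granule sum was 217.1 to 260.1 CPM in TBI and 184.3 to 283.8 in sham. Both of these overlapped, with median changes of −0.04 and 0.15 and 0 genes called by edgeR. All 7 microglia and macrophage markers were called higher at day 14. Astrocyte markers then summed to 6871 to 10630 CPM in TBI and 3434 to 4467 in sham, with Gfap alone called (2.06). The part of cell composition in the changes of the pore genes was not tested.

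When a covariate for choroid plexus score was added, Cacna1i was at −0.89 at day 1 (adjusted p = 0.00132 by edgeR) and −0.50 at day 14 (adjusted p = 0.0464 by edgeR), and Cacna1c and Cacna1h kept their day 1 calls at −1.18 and −0.76. Cacna1a was also called at day 1 in that fit (−0.62, adjusted p = 0.0198 by edgeR). With sham day 1 replicate 1 and TBI day 1 replicate 1 both left out, 1 sham day 1 sample remained. The day 1 change of Cacna1g was then −0.41.

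The patterns of the 8 genes over the 14 samples were most alike for Cacna1a and Cacna1h (Pearson r = 0.95) and least alike for Cacna1g with Cacna1c or Cacna1e (r = 0.44 each). These samples share 4 groups and their depth, so the values are a description. Of 11832 expressed genes, those most like Cacna1a were Unc13a (r = 0.985), Unc79 (0.981) and Grik2 (0.98), and those most like Cacna1h were Bai2 (0.994), Slc12a5 (0.987) and Ece2 (0.986). Cacna1i was followed most closely by Madd (r = 0.972), Mpp2 (0.971) and Clstn3 (0.968), and Cacna1b by Rab3gap2 (0.978), RGD1311723 (0.977) and Dync2h1 (0.975). For Cacna1c these were Cnnm1 (0.983), Celsr2 (0.981) and Slc6a15 (0.977), and for Cacna1d Zfp266 (0.988), Fbn1 (0.985) and Trrap (0.975). Cacna1e was nearest to Slc4a8 (0.981), Fry (0.971) and Mtmr12 (0.966). Cacna1g had the lowest values of the 8, with Celsr3 (0.958), Camsap3 (0.948) and Mir770 (0.939).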

How the data were processed

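The authors aligned single-end 50 bp reads of stranded mRNA libraries to rat build rn5 with STAR 2.4.2a and assigned reads to UCSC genes with featureCounts 1.5.0. The deposited counts per gene are whole numbers without normalization. Whether counting used strand is not given in the sources used here, so reads of overlapping or antisense genes cannot be told apart.

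Tests used edgeR 4.0.16 under R 4.3.3, with TMM scaling, its default expression filter applied by group, and 1 quasi-likelihood model of 4 group means for the 14 samples. Tests were two-sided, with Benjamini-Hochberg adjustment over 12875 genes, with a threshold of 0.05. In this fit the 2 sham day 1 samples share the spread estimated over all groups. The labels give replicate numbers and do not name rats, and the paper's Results give the same numbers of rats per group. Its Methods differ, with 2 sham rats at day 14, where 4 libraries were counted. Chi-squared per degree of freedom between replicates was 50.6 to 165 at day 1 and 12.8 to 50.6 at day 14. The p-values measure the spread between replicates, in which rat and dissection cannot be told apart. The model gives 1 spread per gene for both days. For Cacna1c the SD in sham and TBI was 0.77 and 0.63 log2 CPM at day 1, and 0.12 and 0.10 at day 14. Intervals are 95%. The fit was checked on simulated data, with 100 altered genes per effect size. In these data each gene had 1 spread for both days. The wider spread between day 1 replicates was thus not simulated, and recovery under it was not tested. With a true log2 effect of size 1, edgeR recovered 38% of them in the day 1 comparison. The day 14 comparison recovered 72%. With size 2 these shares were 91% and 93%. A gene that was not called may therefore still differ, more so at day 1.

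Alternatives were limma-voom (limma 3.58.1), DESeq2 1.42.0, median-of-ratios factors, no filter, at least 10 counts in every sample, a replicate block, only the groups compared, all 6 sham samples, a choroid plexus covariate and each sample left out. Leaving out 2 samples together was added after seeing the data. The members and lists were chosen with earlier results of these data known. Named genes were the members, the subunit genes, the 2 genes of smallest p in each pathway list and day, and the 3 genes of most similar pattern. Other list genes and cell type markers named beside a count were chosen after their values were seen, and 1 gene that the rule named is not reported here. Scaling the sums of each type other than T-type to the total counts was also added after seeing the data. Per-length levels were planned and not computed, since no transcript lengths of the build were used. H3K4me3 peaks, in rn5 coordinates, were not used here.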

Additional observations from a re-analysis of the deposited data

Results flagged for a closer look

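In TBI day 14, Cacna1g was 7.33 log2 CPM in replicate 2, apart from the other 3 samples at 7.02 to 7.07. Of 24 groups of 4 samples examined for a single extreme value over the 8 genes, this was the 1 found, and chance gives about 1 in 20. Without replicate 2 the day 14 change of Cacna1g was −0.55 (adjusted p = 0.256 by edgeR) in place of −0.47. That library also held choroid plexus markers at 1521 CPM, and their part in the value was not tested.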

How the results depend on the processing

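Of 696 values of single pore genes under alternatives, 642 kept their direction and their side of the threshold, 11 lost a call, 25 gained one and 18 changed direction; the causes were not tested. At day 1 the 3 genes called lower became 0 with only the 6 day 1 samples fitted and 7 against all 6 sham samples pooled. With single TBI day 1 samples left out they were 1 to 4 (1 without TBI day 1 replicate 3). The day 1 count also changed with which sham day 1 sample was left out. At day 14 the 1 gene became 2 by DESeq2, 3 with only the day 14 samples and 0 with all 6 sham samples. For sham day 1 against sham day 14 the 4 genes became 6 by limma-voom and by DESeq2 and 2 without sham day 1 replicate 1, and single samples left out gave 2 to 5. For the difference between days, 0 became 1 with both replicates 1 left out. Where 1 sham day 1 sample remained, it was assumed to vary like the other groups.

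None of the changes of direction was called. At day 1 Cacna1g went to −0.029 with the choroid plexus covariate, −0.45 with all 6 sham samples, −0.41 with both replicates 1 left out, and between −0.20 (TBI day 1 replicate 1 left out) and 0.29 over single samples, with −0.17 when sham day 1 replicate 1 was left out. With single samples left out, Cacna1b ranged from −0.37 to 0.054 and Cacna1d from −0.48 to 0.25, the upper ends without sham day 1 replicate 2. At day 14 Cacna1e was at 0.096 with the covariate, 0.02 without sham day 14 replicate 3 and −0.33 to 0.033 over single samples (0.033 when TBI day 14 replicate 2 was left out), and with all 6 sham samples Cacna1e, Cacna1a and Cacna1h were at 0.024, 0.0028 and 0.089. In the difference between days, Cacna1d was at −0.16 with the covariate, −0.19 to 0.54 over single samples (−0.19 when sham day 1 replicate 1 was left out) and −0.26 with both left out, where Cacna1b was at −0.056.

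Whether the replicate numbers pair the samples was not settled. Same-numbered samples had correlations of their deviations of 0.127 and 0.073 at day 1 and −0.0383 to 0.24 at day 14. Different-numbered samples of day 14 had −0.43 to 0.213. With 2 sham samples at day 1, their deviations mirror each other, so the day 1 values cannot test pairing. With the replicate number as a block, 3 genes were called lower at day 1, 1 at day 14 and 6 between the sham groups, and Cacna1d at day 1 went to 0.057.

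Over all genes, 1021 called lower and 1437 higher at day 1 became 94 and 557 with only the day 1 samples, 2032 and 2292 with all 6 sham samples and 367 and 555 without sham day 1 replicate 2. At day 14, 47 lower became 119 by DESeq2, 205 with only the day 14 samples (903 higher, from 524) and 21 to 46 with single samples left out. Sham day 1 against sham day 14 went from 1014 lower and 1450 higher to 270 and 673 without sham day 1 replicate 2. For the difference between days, 186 lower and 288 higher became 100 and 178 by limma-voom, 453 and 600 by DESeq2, 62 and 124 with the covariate and 407 and 593 with both replicates 1 left out. The length alternatives were not run, since no lengths were used.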
